A study of Mus musculus with 31 samples.

Results

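The 9 genes described here are markers and matrix components of tendon and cartilage, taken by name among the 22609 gene symbols counted in masseter muscle (MM): Scx, Mkx and Sox9, which encode transcription factors; Tnmd, Thbs4 and Comp, which are expressed in tendon; and Acan, Hapln1 and Chad, which encode proteins of the cartilage matrix. They were chosen by name, with no threshold on their values but with earlier results of these data known. Bulk RNA-seq was made from the MM of 31 adult male C57BL/6J mice, 1 library per mouse, after injection into the left MM of complete Freund's adjuvant (CFA, an oil emulsion that elicits inflammation), of collagenase (Col, an enzyme that digests collagen) or of vehicle (PBS). The 9 groups were CFA at 1d and 5d and their vehicle group (3 mice each), 0.2U Col in groups labelled 1C and RPC (4 mice each), 10U Col labelled 2d (4 mice), 6d (3 mice) and 12d (4 mice), and the vehicle group of the Col experiment (3 mice). The labels do not say on which day 1C and RPC were collected, the study's methods give other days than the labels for the groups labelled 2d and 12d, and no collection day is given for vehicle. Nothing says whether mice of one group shared a litter or an injection day, so p-values measure the spread between these libraries.

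Reads counted on genes numbered from 14843778 to 29076671 per library. No 2 libraries were alike in all values (465 pairs compared), and their log2 CPM (counts scaled to the library size) correlated at 0.9952 at most. The share of reads that the authors' counting left ambiguous between genes was 0.331 to 0.399% in the 11 libraries of 10U Col and 0.0757 to 0.138% in the other 20, so 10U Col and whatever set these libraries apart in counting cannot be told apart in a comparison with vehicle. The 3 10U groups were alike in this share, so comparisons among them do not carry this difference. According to the methods, the dissection of MM aimed to leave out the tendons at its attachments. Summed CPM of 11 salivary gland markers ran from 12.9 to 634000 over the 31 libraries and those of 10 muscle markers from 33000 to 243000, so the tissue that a library sampled varied widely. In bulk tissue, fewer cells of a type and less RNA per cell cannot be told apart.

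Tendon joins muscle to bone, and its cells, the tenocytes, lay down a matrix of aligned collagen. Scleraxis (Scx) marks tendon progenitors and tenocytes, mohawk (Mkx) maintains the mature tendon programme, and tenomodulin (Tnmd) is a membrane protein of differentiated tenocytes. Cartilage cells are specified by Sox9 and surround themselves with the proteoglycan aggrecan (Acan), which the link protein Hapln1 anchors to hyaluronan. Chondroadherin (Chad) and cartilage oligomeric matrix protein (Comp) bind collagen and cells, and thrombospondin 4 (Thbs4) is a matrix protein of muscle-tendon junctions. Sox9 is also expressed in gland epithelium, and Scx and Mkx in other connective tissue, so none of the 9 is fully specific.

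Positions are those of GENCODE vM1 on mouse build mm9. Scx lies on chromosome 15 from 76287868 to 76289898, Mkx on chromosome 18 from 6934964 to 7004777 and Sox9 on chromosome 11 from 112643538 to 112649074. Tnmd lies on chromosome X from 130385519 to 130400116, Thbs4 on chromosome 13 from 93521545 to 93564773 and Comp on chromosome 8 from 72897447 to 72905964. Acan lies on chromosome 7 from 86198369 to 86259985, Hapln1 on chromosome 13 from 89680241 to 89751437 and Chad on chromosome 11 from 94426361 to 94430441. No exon of a member overlaps an exon of another gene, and none of their 50-base windows occurs in the transcripts of another gene. Scx lies inside Bop1 and Chad inside Acsf2, each on the opposite strand, and the sources used here do not say whether counting used the strand. Bop1 had 22.8 to 57.4 CPM in the 10U libraries and 29.2 to 54.3 CPM in the other libraries. Acsf2 had 4.71 to 10.7 CPM and 3.57 to 18.4 CPM, in the same order, so the host genes overlapped between the 2 sets of libraries.

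The members were expressed at very different levels and varied widely between mice of the same group. Per length, as mean RPKM (reads scaled to the library size and to the summed exon length) in the vehicle group of the Col experiment, Thbs4 led with 73.8 ± 57.2 (SD, n = 3), followed by Chad with 16.9 ± 10.4, Tnmd with 12.3 ± 13, Comp with 10.3 ± 8.74 and Scx with 6.87 ± 2.78. Mkx (2.24 ± 0.731), Sox9 (1.37 ± 0.819), Acan (0.96 ± 0.812) and Hapln1 (0.148 ± 0.137) were lower. Between neighbours in this order the means differed by more than either SD only for Scx and Mkx and, narrowly, for Mkx and Sox9; for Acan and Hapln1 the difference equalled the SD of Acan. All members but Acan and Hapln1 reached 10 counts in every library, whereas Acan did so in 24 and Hapln1 in 21 of 31. Between those 3 mice the highest value was 56.5 times the lowest for Acan, 22.2 times for Hapln1, 15.1 times for Tnmd, 12.6 times for Comp and 11.6 times for Thbs4. It was 4.7 times for Chad, 3.86 times for Sox9, 2.32 times for Scx and 1.97 times for Mkx. The mouse with replicate number 2 was the lowest of the 3 for every member except Sox9, for which it was the highest. In that mouse the 12 bone markers summed to 52.1 CPM, against 223 and 314 CPM in the other two, and the salivary gland markers to 333000 CPM, against 142 and 87000 CPM.

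**Figure D1:**
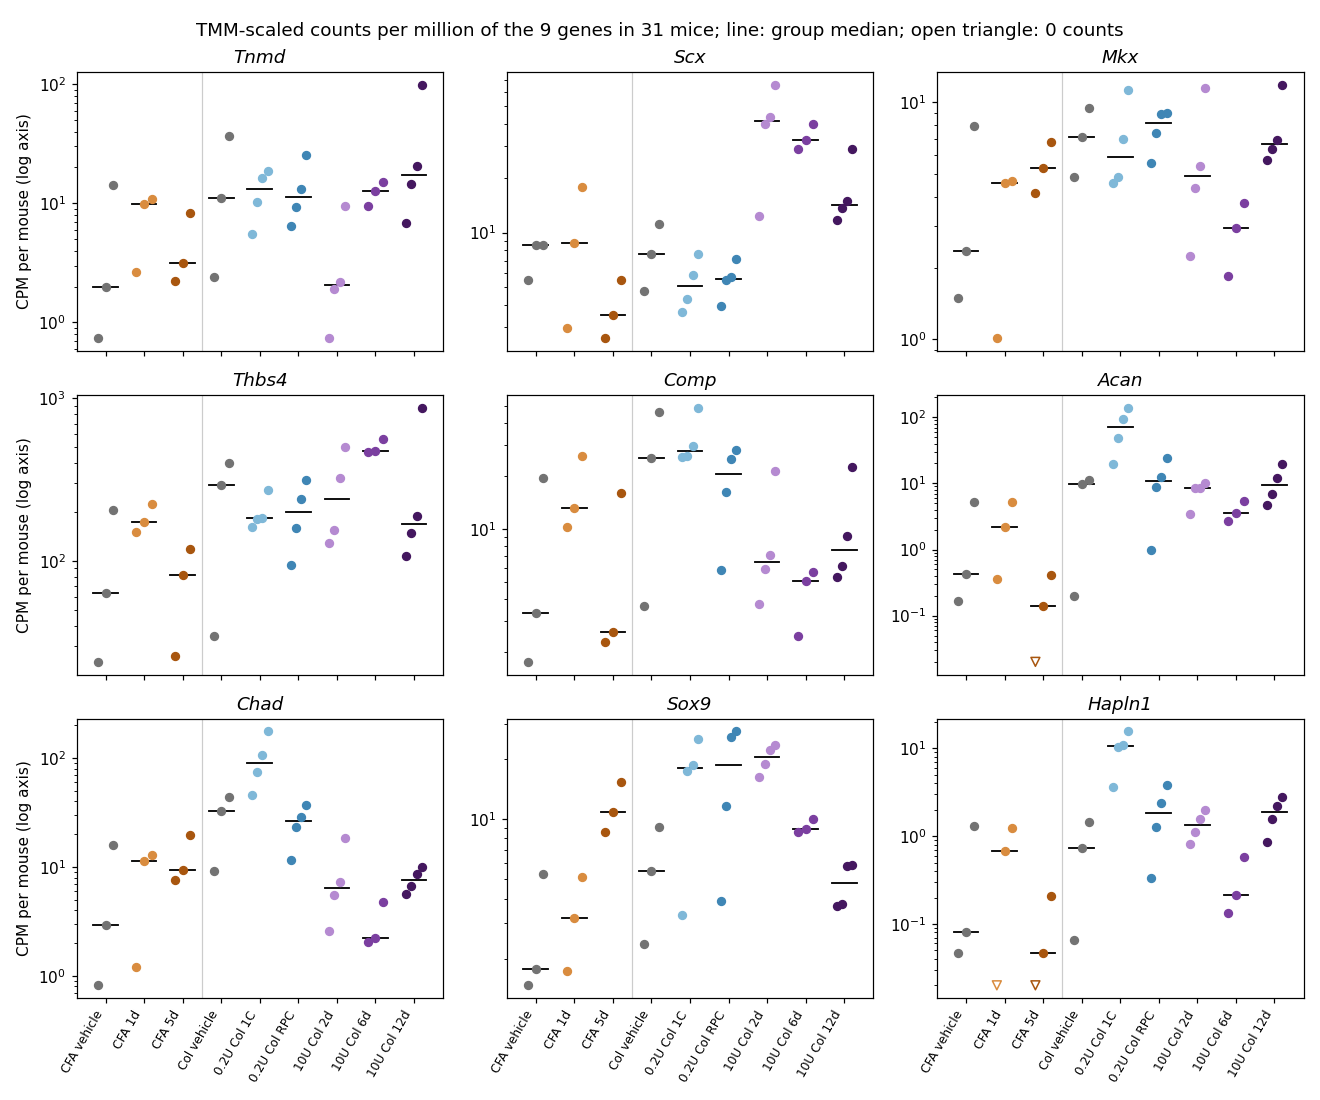
TMM-scaled CPM (log axis) of the 9 genes in each of 31 mice, by group, with the group median as a line and 0 counts as an open triangle. Scx was above its vehicle group in all 11 mice of 10U Col, Acan, Hapln1 and Chad were highest in the 0.2U Col group 1C, and the 3 mice of the Col vehicle group spread over more than 10-fold for Tnmd, Thbs4, Comp, Acan and Hapln1.

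Whether the members followed Col was tested against vehicle. CPM are counts scaled to the library size with the TMM factors of edgeR, and a gene is said to have changed where edgeR's quasi-likelihood test gave a Benjamini-Hochberg adjusted p under 0.05 over all genes tested. At 6d after 10U Col, 4 of 9 members passed: Scx was higher, and Mkx, Comp and Chad were lower. The background was 27.3% of 14281 genes, 14.0% higher and 13.3% lower, so a change in itself did not set the members apart at this time. DESeq2 called the same 4 genes there, against 35.6% of all genes. No member passed at 2d after 10U Col, where 2.22% of 14373 genes did; 3 members had an unadjusted p under 0.05 (33.3% of genes), and DESeq2 called Scx and Sox9 (23.1% of genes). At 12d none passed, where 1.23% of 14176 genes did; 2 members had an unadjusted p under 0.05 (17.4% of genes), and DESeq2 called Chad (6.36% of genes). In the 0.2U groups no gene passed with edgeR (0.0% of 14493 in 1C and 0.0% of 14269 in RPC). In 1C, 3 members had an unadjusted p under 0.05 (12.6% of genes) and DESeq2 called Chad and Hapln1 (3.58% of genes), while in RPC the counts were 0 (13.5%) and 0 (3.1%). Of the 9 members, the median log2 fold change was -0.85 at 6d, 0.13 at 2d and 0.53 at 12d after 10U Col, against 0.01, 0.02 and 0.01 over all genes. A single vehicle group of 3 mice served as reference for all 5 Col groups. Counted by overlap alone, 4 members lay wholly above or below vehicle at 6d (47.0% of genes did), 2 at 2d (23.9%), 1 at 12d (17.1%), 3 in 1C (9.76%) and 0 in RPC (12.2%). With 1 mouse left out of the comparison at 6d, between 1 and 5 members passed: Scx in every case, Scx alone without the mouse at 6d with replicate number 1 or 2, Scx and Chad without the third mouse at 6d or without vehicle-treated mouse 1 or 3, and Acan in addition to the 4 without vehicle-treated mouse 2. Shares of all genes are not given for fits without 1 mouse, here or below, so counts in these fits do not set the members apart.

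**Figure D2:**
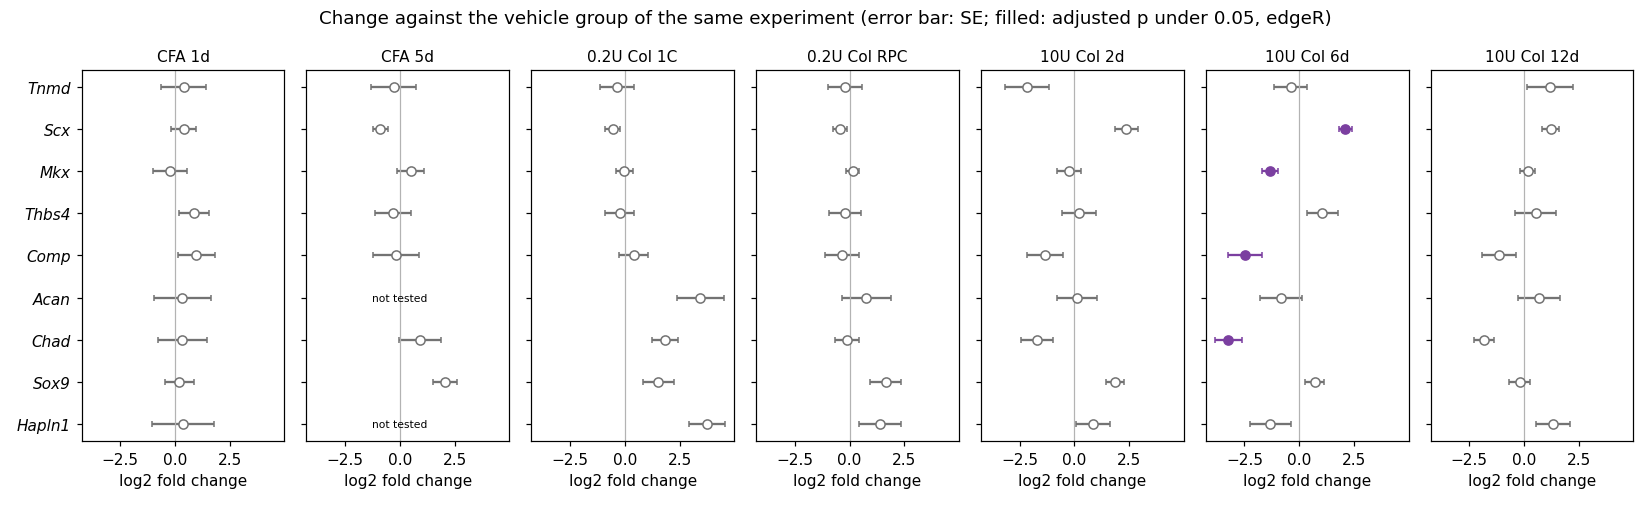
Log2 fold change of each gene against the vehicle group of its experiment in 7 comparisons; bars are SE, and filled points passed edgeR's test. The only filled points are at 6d after 10U Col, Scx at 2.10, Mkx at -1.33, Comp at -2.49 and Chad at -3.24; Acan and Hapln1 were not tested at 5d post-CFA.

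Scx, the tendon progenitor factor, was above vehicle in all 11 mice given 10U Col. It had 4.76, 7.61 and 11.1 CPM in the 3 vehicle-treated mice and 29.1, 32.4 and 39.7 CPM at 6d after 10U Col. All 3 treated mice lay above all 3 vehicle-treated mice, a 4.3-fold difference (log2 fold change 2.10, SE 0.30; edgeR adjusted p = 0.0053). At 2d the 4 mice had 12.4, 39.6, 43.3 and 65.8 CPM, again all above vehicle, with a log2 fold change of 2.37 (SE 0.54) that did not pass (edgeR adjusted p = 0.054, DESeq2 adjusted p = 0.000219). The lowest of these is the mouse with replicate number 4, and without it Scx, Sox9, Tnmd and Chad passed, the last pair as lower. At 12d Scx had 11.8, 13.6, 14.9 and 28.8 CPM, which was above vehicle in 4 of 4 mice and below 6d in 4 of 4 mice. Neither difference at 12d passed: the log2 fold change was 1.21 (SE 0.40; edgeR adjusted p = 0.195) against vehicle and -0.95 (SE 0.30; edgeR adjusted p = 0.0526) against 6d. In the 0.2U groups Scx had 3.63 to 7.57 CPM in 1C and 3.91 to 7.13 CPM in RPC, both overlapping with vehicle. In order of group means, Scx stood at 40.3 CPM at 2d, 33.7 at 6d and 17.3 at 12d after 10U Col, and between 3.85 and 9.86 CPM in the other 6 groups.

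The tissue composition of the 10U libraries moved at the same time. The 10 muscle markers summed to 33000 to 76900 CPM at 2d and 45400 to 78500 CPM at 6d, against 127000 to 192000 CPM in vehicle, and at 6d 2 of the 10 (Myh4 and Ckm) fell. Of 7 leukocyte markers 5 rose at 6d, and their summed CPM were 1130 to 2240 against 103 to 442; of 7 fibroblast markers, Col3a1 and Col6a1 rose, and the sums were 6140 to 8950 against 1220 to 4230. Over all genes at 6d, 14.0% passed as higher and 13.3% as lower. The counts of muscle and fibroblast markers alone thus do not set these lists apart. The part of the tissue shifts in the change of Scx was not tested. At 6d the 12 bone markers summed to 32.9 to 70.5 CPM, against 52.1 to 314 CPM in vehicle. Mepe had no count in the 3 mice at 6d, and 4 of the 10 tested bone markers fell. The 8 other tendon genes described below had a median log2 fold change of 1.93 at 6d. The bone markers include no tendon gene, and the part of carried-over tendon in the change of Scx was not tested. With a bone score (the mean log2 CPM of the 12 markers) as a covariate in 1 fit of all 31 libraries, Scx was higher by 2.75 (SE 0.49) on the log2 scale at 6d (edgeR adjusted p = 0.000226). With a salivary gland score added it was higher by 2.09 (SE 0.56; edgeR adjusted p = 0.00673). At 2d the same fits gave 2.47 (SE 0.44) and 2.55 (SE 0.41), with edgeR adjusted p = 0.0005 and 0.000254.

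Mkx went the other way at 6d. It had 4.83, 7.15 and 9.51 CPM in vehicle and 1.86, 2.95 and 3.76 CPM at 6d after 10U Col, without overlap (log2 fold change -1.33, SE 0.38; edgeR adjusted p = 0.0384). It rose again by 12d, to 5.74, 6.36, 6.94 and 11.9 CPM, all above 6d (log2 fold change 1.46, SE 0.35; edgeR adjusted p = 0.025) and overlapping with vehicle. So the 2 tendon transcription factors moved in opposite directions from vehicle to 6d. With both tissue scores as covariates the log2 fold change of Mkx at 6d was 0.08 (edgeR adjusted p = 0.936), and with the bone score alone -0.78 (edgeR adjusted p = 0.264). At 2d Mkx had 2.26 to 11.5 CPM and overlapped with vehicle.

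Sox9 had its highest mean among the 10U groups at 2d and fell afterwards. It had 2.37, 5.48 and 9.13 CPM in vehicle, 16.2, 19, 22.1 and 23.4 CPM at 2d, 8.64, 8.93 and 9.99 CPM at 6d and 3.65, 3.76, 5.8 and 5.88 CPM at 12d after 10U Col. The groups at 2d, 6d and 12d did not overlap with one another. Sox9 fell from 2d to 6d (log2 fold change -1.15, SE 0.17; edgeR adjusted p = 0.0117) and from 6d to 12d (-0.93, SE 0.22; edgeR adjusted p = 0.0247). It was the only 1 of 9 members to pass between 2d and 6d, where 8.73% of 14513 genes passed; DESeq2 called Sox9 and Hapln1 (18.7% of genes), and these 2 were also the members without overlap (23.7% of genes). With edgeR it did not pass when any 1 mouse at 6d was left out. Against vehicle the difference at 2d did not pass, at a log2 fold change of 1.85 (SE 0.43; edgeR adjusted p = 0.054, DESeq2 adjusted p = 0.000719), although all 4 mice lay above vehicle. In the 0.2U groups 3 of 4 mice in each were high, with 17.4 to 25.1 CPM and 1 mouse at 3.29 CPM in 1C, and with 11.6 to 27.5 CPM and 1 mouse at 3.9 CPM in RPC. Salivary gland markers fell with Sox9 from 2d to 6d (8 of 10 tested, at summed CPM of 64.1 to 211000 and 12.9 to 43.5), and with both tissue scores as covariates its log2 fold change there was -0.05 (edgeR adjusted p = 0.976). With the bone score alone it was -1.08 (edgeR adjusted p = 0.235), and from 6d to 12d the log2 fold changes were -1.0 (0.233) with the bone score and -1.45 (0.0668) with both, so neither fall passed in these fits. Against vehicle, Sox9 passed at 2d with the bone score (1.82; edgeR adjusted p = 0.0238) and with both scores (2.03; 0.00804), and at 6d with both (1.97; 0.043) but not with the bone score alone (0.75; 0.361). In the mouse at 2d with 64.1 CPM of salivary gland markers, the one with replicate number 3, Sox9 had 22.1 CPM, within the range of the other 3. This is 1 mouse, and the part of salivary gland tissue in the changes of Sox9 was not tested.

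Tnmd, the membrane protein of mature tenocytes, did not pass in any comparison when all mice were kept and the fit had no score or replicate block. It had 2.41, 11.1 and 36.4 CPM in vehicle, 0.735, 1.91, 2.18 and 9.49 CPM at 2d, 9.46, 12.8 and 15.2 CPM at 6d and 6.8, 14.4, 20.4 and 99.2 CPM at 12d after 10U Col. At 2d, 3 of the 4 mice were thus below every vehicle-treated mouse. Its log2 fold change at 2d was -2.15 (SE 1.01; edgeR adjusted p = 0.174), and without the mouse with replicate number 4, at 9.49 CPM, Tnmd passed. From 2d to 6d the log2 fold change was 1.75 (SE 0.74; edgeR adjusted p = 0.181), which also passed without that mouse. With the bone score as a covariate that difference passed, at 3.14 (SE 0.81; edgeR adjusted p = 0.00854), and with both scores it was 3.12 (edgeR adjusted p = 0.0831). With the replicate number as a block that difference was 3.02 (edgeR adjusted p = 0.00508). No mouse at 6d has replicate number 4, so this fit gives mouse 4 at 2d no weight, as when it was left out. The replicate numbers do not pair the mice. The group means of Tnmd and Scx were ordered differently: at 2d Scx was at its highest group mean and Tnmd at its lowest, 3.58 ± 3.99 CPM (SD, n = 4).

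Thbs4 had 34.4, 294 and 400 CPM in vehicle and 468, 475 and 560 CPM at 6d, so the groups did not overlap, but the log2 fold change of 1.05 (SE 0.70) did not pass (edgeR adjusted p = 0.286). At 2d it had 130, 156, 323 and 503 CPM and at 12d 107, 149, 190 and 873 CPM, both overlapping with vehicle. When the bone score was a covariate, Thbs4 was higher at 6d than in vehicle by 2.62 on the log2 scale (edgeR adjusted p = 0.00377). The related gene Thbs2, a thrombospondin of connective tissue, rose at 6d from 13.5 to 89.1 CPM in vehicle to 364 to 625 CPM (log2 fold change 3.05, SE 0.65; edgeR adjusted p = 0.0172), the 1 of 3 other thrombospondins that passed. Neither Thbs1 (0.82, SE 0.48) nor Thbs3 (1.5, SE 0.58) did, and 27.3% of all genes passed at 6d.

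Comp, a pentameric matrix protein of tendon and cartilage, fell at 6d. It had 3.65, 25.2 and 46 CPM in vehicle and 2.48, 5.08 and 5.68 CPM at 6d after 10U Col, a log2 fold change of -2.49 (SE 0.77; edgeR adjusted p = 0.0482). The groups overlapped, since the vehicle-treated mouse at 3.65 CPM lay within the range at 6d. Comp had 3.73, 5.95, 7.09 and 21.2 CPM at 2d and 5.35, 6.14, 9.06 and 22.4 CPM at 12d, and neither group passed against vehicle. The bone score as a covariate brought the log2 fold change at 6d to -0.88 (edgeR adjusted p = 0.387).

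Among 8 other genes of tendon matrix and its regulation, 3 rose and 1 fell at 6d after 10U Col, at a median log2 fold change of 1.93 against 0.01 over all genes. Tnc, which encodes the matrix glycoprotein tenascin C, rose from 13.7 to 99.8 CPM in vehicle to 1080 to 2040 CPM (log2 fold change 4.68, SE 0.76; edgeR adjusted p = 0.00774). Col14a1, a fibril-associated collagen, rose by 2.22 on the log2 scale (SE 0.40; edgeR adjusted p = 0.0102). Fmod, a small proteoglycan that binds collagen fibrils, fell with Comp, by 2.79 on the log2 scale (SE 0.83; edgeR adjusted p = 0.0426), and its groups overlapped at 75.7 to 136 and 79.2 to 1250 CPM. For Col12a1, another fibril-associated collagen, the log2 fold change was 2.33 (SE 0.90), which did not pass. At 6d, 14.0% of all genes passed as higher and 13.3% as lower. None of the 8 passed at 2d or 12d after 10U Col. Of 10 genes of growth factor signalling, 4 rose at 6d, among them Tgfb3 (1.53, SE 0.24; edgeR adjusted p = 0.00659), Tgfb1 (1.44, SE 0.34; edgeR adjusted p = 0.0219) and the receptor gene Tgfbr1 (1.23, SE 0.29; edgeR adjusted p = 0.0228).

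The 3 genes of the cartilage matrix, Acan, Hapln1 and Chad, had their highest group means in the 0.2U Col group 1C. Their promoters are shown because the 3 genes were highest in the same group. Each line gives the 250 bases before the transcription start, from RefSeq's annotation of build GRCm38.p6, with matches to the E-box CANNTG, the motif class that basic helix-loop-helix factors such as Scx recognise, in capitals. All 3 are on the plus strand, at chr7:79052976-79053225 for Acan, chr13:89540386-89540635 for Hapln1 and chr11:94564797-94565046 for Chad.
Acan: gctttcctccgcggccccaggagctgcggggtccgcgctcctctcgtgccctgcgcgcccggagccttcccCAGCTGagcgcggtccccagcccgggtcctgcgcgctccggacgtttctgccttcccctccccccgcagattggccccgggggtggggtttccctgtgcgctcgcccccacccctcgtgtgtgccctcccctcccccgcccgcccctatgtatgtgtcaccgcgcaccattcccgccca
Hapln1: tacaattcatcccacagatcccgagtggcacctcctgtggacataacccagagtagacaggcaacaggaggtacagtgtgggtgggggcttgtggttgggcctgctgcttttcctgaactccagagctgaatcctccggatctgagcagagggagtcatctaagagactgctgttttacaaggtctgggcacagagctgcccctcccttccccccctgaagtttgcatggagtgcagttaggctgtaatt
Chad: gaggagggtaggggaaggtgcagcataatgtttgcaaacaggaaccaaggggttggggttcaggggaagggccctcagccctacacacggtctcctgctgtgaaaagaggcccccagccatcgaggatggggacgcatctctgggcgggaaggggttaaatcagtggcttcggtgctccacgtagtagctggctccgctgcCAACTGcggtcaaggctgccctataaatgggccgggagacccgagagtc
Acan holds 1 E-box, which begins 179 bases before the start, Chad holds 1, at 49 bases, and Hapln1 none. On both strands 66.2% of 32851 promoter windows of this length hold at least 1. Scx overlapped with vehicle in 1C, at 3.63 to 7.57 CPM, and regulation of the 3 genes was not tested. The SOX core ACAAAG or ACAATG, searched on both strands, is in none of these 3 windows and in 25.2% of all. Promoter windows were found for 5 of the 9 members, the other two being Tnmd and Thbs4.

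Acan had 19.6, 49, 95.5 and 138 CPM in 1C, against 0.196, 9.92 and 11.1 CPM in vehicle. Hapln1 had 3.64, 10.5, 10.9 and 15.6 CPM against 0.0652, 0.728 and 1.45 CPM, and Chad 45.9, 74.3, 107 and 176 CPM against 9.26, 32.4 and 43.6 CPM. In all 3 genes the 4 mice of 1C lay above the 3 vehicle-treated mice; the groups did not overlap in this direction in 4.35% of 14493 genes. The differences were 10.9-fold, 13.4-fold and 3.6-fold (log2 fold changes 3.44, SE 1.08; 3.74, SE 0.83; and 1.85, SE 0.60), and none passed (edgeR adjusted p = 0.294, 0.251 and 0.304). DESeq2 called Hapln1 (adjusted p = 5.89e-05) and Chad (0.0293) but not Acan (0.0848). In group RPC the 3 genes overlapped with vehicle, at 0.992 to 24.4 CPM for Acan, 0.331 to 3.81 CPM for Hapln1 and 11.7 to 36.9 CPM for Chad. The remaining 6 members overlapped with vehicle in both 0.2U groups.

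In 1C, markers of several other tissues had higher ranges than in vehicle, and not all lists ordered its mice alike. Of 16 further cartilage genes 13 were tested, all 13 had positive log2 fold changes with a median of 3.48, and none passed with edgeR. Col10a1, the collagen of hypertrophic cartilage, had 10.5 to 57.7 CPM in 1C and 0.0453 to 0.0652 CPM in vehicle. Cytl1, a secreted cartilage protein, had 12.6 to 342 CPM against 7.92 to 11.4 CPM. The other such lists were bone (12 of 12 tested positive, none passed; summed CPM 147 to 566 against 52.1 to 314), skin epithelium (9 of 9; 310 to 669 against 74.9 to 171), adipose (5 of 6; 47.8 to 1030 against 29.9 to 91.4) and osteoclast (8 of 8; 272 to 603 against 32 to 398). Sums of further cartilage, skin epithelium and adipose markers ordered the mice of 1C as Acan and Chad did. They were highest in the mouse with replicate number 4 (911, 669 and 1030 CPM) and lowest in mouse 2 (534, 310 and 47.8 CPM). Bone and osteoclast markers did not follow this order. Mouse 2, the lowest of 1C for Acan, Hapln1 and Chad, had the highest bone and osteoclast sums (566 and 603 CPM). Bone markers were lowest in mouse 1, at 147 CPM, which lay within the range of vehicle. With the bone score as a covariate, the log2 fold changes in 1C were 2.98 for Acan (edgeR adjusted p = 0.0524), 3.14 for Hapln1 (0.0621) and 1.29 for Chad (0.445). With the salivary gland score added, Acan (2.97; edgeR adjusted p = 0.0352) and Hapln1 (3.19; 0.0361) passed and Chad (1.38; 0.289) did not. Salivary gland markers had a median log2 fold change of -2.45 in 1C. No fit held a score of skin epithelium, adipose or further cartilage markers, so their part in these differences was not tested.

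Of these 3 genes, Chad fell at 6d after 10U Col. It had 2.05, 2.24 and 4.8 CPM, against 9.26 to 43.6 CPM in vehicle, without overlap (9.44-fold lower, log2 fold change -3.24, SE 0.61; edgeR adjusted p = 0.012). It had 2.57, 5.57, 7.31 and 18.6 CPM at 2d and 5.68, 6.65, 8.58 and 9.97 CPM at 12d. Against vehicle neither passed, at log2 fold changes of -1.71 (SE 0.71; edgeR adjusted p = 0.138) and -1.83 (SE 0.47; edgeR adjusted p = 0.121). Chad rose from 6d to 12d (log2 fold change 1.37, SE 0.36; edgeR adjusted p = 0.0319). In the fit with the bone score, Chad was lower at 6d than in vehicle, at a log2 fold change of -1.80 (edgeR adjusted p = 0.0434). With both scores it did not pass at 6d (-1.23, edgeR adjusted p = 0.248). At 2d Chad passed with both scores (-1.52, edgeR adjusted p = 0.0459) but not with the bone score (-1.35, edgeR adjusted p = 0.0706). At 12d it passed in neither fit (edgeR adjusted p = 0.188 with both and 0.0808 with the bone score), whereas DESeq2 called it (adjusted p = 0.00413).

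Acan and Hapln1 did not pass against vehicle at any time after 10U Col. Acan had 3.49 to 10.2 CPM at 2d, 2.71 to 5.48 CPM at 6d and 4.67 to 19.4 CPM at 12d, all overlapping with vehicle. At 6d the log2 fold changes against vehicle were -0.85 for Acan and -1.32 for Hapln1, and with the bone score as a covariate they were 1.76 (edgeR adjusted p = 0.092) and 0.85 (0.487), so the direction turned. Hapln1 had 0.825, 1.11, 1.58 and 2 CPM at 2d, 0.135, 0.214 and 0.585 CPM at 6d and 0.868, 1.55, 2.18 and 2.78 CPM at 12d. The 3 mice at 6d were thus below every mouse at 2d and at 12d. The rise from 6d to 12d passed (5.97-fold, log2 fold change 2.58, SE 0.61; edgeR adjusted p = 0.0242), and the difference between 2d and 6d did not (-2.15, SE 0.59; edgeR adjusted p = 0.0633). Hapln1 counts were low, with 4 to 14 reads in the mice at 6d, and at 10 counts the counting error alone is 31.6%.

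Of 10 partners of aggrecan in the hyaluronan matrix, 9 were tested at 6d, where 4 rose: Vcan, the gene of the proteoglycan versican (log2 fold change 4.0, SE 0.46; edgeR adjusted p = 0.00292), Adamts4, a protease that cuts aggrecan (3.60, SE 0.45; 0.00364), Has2, a hyaluronan synthase (3.27, SE 0.35; 0.00248), and Cd44, a hyaluronan receptor (1.44, SE 0.32; 0.0183). Vcan had 92.9 to 174 CPM at 6d and 3.85 to 12.3 CPM in vehicle. Of all genes, 14.0% passed as higher and 13.3% as lower at 6d. Other cartilage genes split, with Col10a1 and Cilp higher and Col2a1 and Cytl1 lower among 9 tested. Col2a1, the main collagen of cartilage, had 0.385 to 0.813 CPM at 6d against 0.326 to 11.1 CPM in vehicle. Cilp, a matrix protein of cartilage and other connective tissue, had 347 to 467 CPM against 13.1 to 91.8 CPM.

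From 6d to 12d after 10U Col, 4 of 9 members passed, where 26.4% of 14344 genes did; DESeq2 called 7 (37.5% of genes). Mkx, Chad and Hapln1 rose and Sox9 fell, all without overlap, and Scx, which did not pass, was also lower without overlap, 5 members in all against 36.5% of genes. None passed without the mouse at 6d with replicate number 1 or 2 or the mouse at 12d with replicate number 2 or 3, and 6 passed without the mouse at 12d with replicate number 4. Bone markers moved in the same interval: 5 of 10 tested rose, among them Bglap, the osteocalcin gene of osteoblasts, from 0.0339 to 0.0835 CPM at 6d to 8.3 to 51.7 CPM at 12d (log2 fold change 8.41, SE 1.21; edgeR adjusted p = 0.00915). Of 8 osteoclast markers 3 rose and of 9 cartilage genes 3 rose, Col2a1, Cytl1 and Col11a2. In the fit with the bone score the log2 fold changes from 6d to 12d were 0.88 for Mkx, 0.13 for Chad, 0.92 for Hapln1 and -1.0 for Sox9, and none of these 4 passed (edgeR adjusted p = 0.22, 0.903, 0.429 and 0.233). In the same fit Scx was lower at 12d, by 1.64 on the log2 scale, and passed (log2 fold change -1.64, SE 0.45; edgeR adjusted p = 0.0091), as did Thbs4 (-2.14; 0.0121). In the fits with tissue scores, neither score of a library is independent of its group, because bone and salivary gland markers differed between the groups.

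CFA gave a comparison without enzyme. At 1d post-CFA no gene passed among 13944 (0.0%), 0 members had an unadjusted p under 0.05 (4.22% of genes), DESeq2 called 0 members (0.402% of genes) and 0 were without overlap (6.22% of genes). At 5d none of the 7 members tested passed, where 1.11% of 14026 genes did; 2 had an unadjusted p under 0.05 (14.0% of genes), DESeq2 called Sox9 (6.41% of genes), and 2, Sox9 and Scx, were without overlap (19.9% of genes). Scx had 5.48, 8.52 and 8.53 CPM in the vehicle group, 2.98, 8.72 and 17.9 CPM at 1d and 2.6, 3.49 and 5.46 CPM at 5d. At 5d the 3 mice were below the 3 vehicle-treated mice by a narrow margin (log2 fold change -0.89, SE 0.35; edgeR adjusted p = 0.311). Sox9 had 8.58, 10.8 and 15.3 CPM at 5d, above vehicle with 1.47, 1.78 and 5.3 CPM (log2 fold change 2.06, SE 0.54; edgeR adjusted p = 0.134, DESeq2 adjusted p = 0.00588). The salivary gland markers of these mice summed to 300000 to 361000 CPM, against 175 to 30800 CPM in vehicle, and none of them passed with edgeR. Acan and Hapln1 were near the detection limit in CFA mice, at 0 to 0.416 CPM and 0 to 0.208 CPM at 5d, and were not tested there.

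Whether a member's change differed between 10U Col and CFA was tested as an interaction, with the mice of 4 groups in a fit. For 6d after Col against 5d post-CFA, Scx passed: its change from vehicle was greater after Col by 3.0 on the log2 scale (SE 0.47; edgeR adjusted p = 0.00579), or 8.01-fold. It was the only 1 of 9 members, where 11.3% of 14892 genes passed, and with DESeq2 Scx and Chad passed (18.6% of genes). Chad was at -4.15 (SE 1.28; edgeR adjusted p = 0.0597, DESeq2 adjusted p = 0.00421). For 2d after Col against 1d post-CFA no member passed (0.0946% of 14794 genes did), 1 had an unadjusted p under 0.05 (6.83% of genes) and DESeq2 called 0 (0.73% of genes). Scx was at 1.97 there (SE 0.85; edgeR adjusted p = 0.712). With both tissue scores as covariates the later difference for Scx was 2.25 (SE 0.83; edgeR adjusted p = 0.116), and with the bone score alone 3.46 (edgeR adjusted p = 0.0013). Between the vehicle groups of the 2 experiments no member passed with edgeR or DESeq2 (0.0426% and 0.462% of 14070 genes did), none had an unadjusted p under 0.05 (2.32% of genes), and the groups overlapped for all 9 (5.07% of genes did not overlap). All 9 log2 fold changes between them were nevertheless positive, from 0.08 for Scx to 2.11 for Chad, and bone markers were positive in 11 of 12. Reads on no gene made up 3.94 to 6.73% in the CFA experiment and 7.0 to 12.1% in the Col experiment. The part of this difference in comparisons between the experiments was not tested.

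Whether the members varied together with neighbouring tissue was asked among mice of the same group. For each gene and each marker list, log2 CPM was centred on its group mean, so that treatment differences drop out, and correlated over 31 mice, with p from 100000 permutations within groups and adjusted over 54 relations. With the bone score, Acan (Pearson r = 0.81, Spearman rho = 0.74), Hapln1 (0.76, 0.64), Thbs4 (0.72, 0.70), Chad (0.68, 0.50), Tnmd (0.67, 0.63), Comp (0.64, 0.59) and Scx (0.56, 0.52) were correlated, at permutation adjusted p from 0.00234 to 0.0231 for r. The rho of Chad did not pass (permutation adjusted p = 0.0715). Mkx did not pass (r = 0.48, rho = 0.40; permutation adjusted p = 0.122 for r), and Sox9 had r = -0.01 and rho = 0.09 (permutation adjusted p = 0.959 for r). Without the 2 libraries farthest from the median of the bone score, r was 0.76 for Acan, 0.67 for Hapln1, 0.74 for Thbs4, 0.53 for Chad, 0.59 for both Tnmd and Comp, 0.51 for Scx and 0.25 for Mkx. As a background, 8.0% of 15514 genes other than the bone markers had an r with the bone score at least as high as that of Scx. Scx had the lowest r of the members that passed, so that 7 of the 9 members reached this value follows from its choice.

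The other lists separated the members further. The score of further cartilage genes, over the 14 of 16 that were tested, was correlated with 7 members, most with Chad (r = 0.74, rho = 0.69; permutation adjusted p = 0.00229 for r) and Acan (r = 0.73, rho = 0.73; 0.00324), and not with Scx (r = 0.36, rho = 0.36; 0.115) or Sox9 (r = 0.35, rho = 0.38; 0.259). Thbs4 followed the leukocyte score (r = 0.87, rho = 0.85; permutation adjusted p = 0.00108) and the fibroblast score (r = 0.84, rho = 0.74; 0.00229). Fibroblast markers were also correlated with Tnmd (r = 0.77, rho = 0.63), Comp (r = 0.73, rho = 0.62) and Acan (r = 0.59, rho = 0.43), the last in r only. Sox9 followed salivary gland markers (r = 0.51, rho = 0.55; permutation adjusted p = 0.0296) and, inversely, muscle markers (r = -0.52, rho = -0.66; 0.00229). In all, 21 of 54 relations passed in r and 20 in rho. No share of all genes was computed for lists other than bone, so these counts do not set the members apart from other genes. Points of 1 group share their treatment, and scores of different lists share a library, so the relations are not independent of one another.

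**Figure D3:**
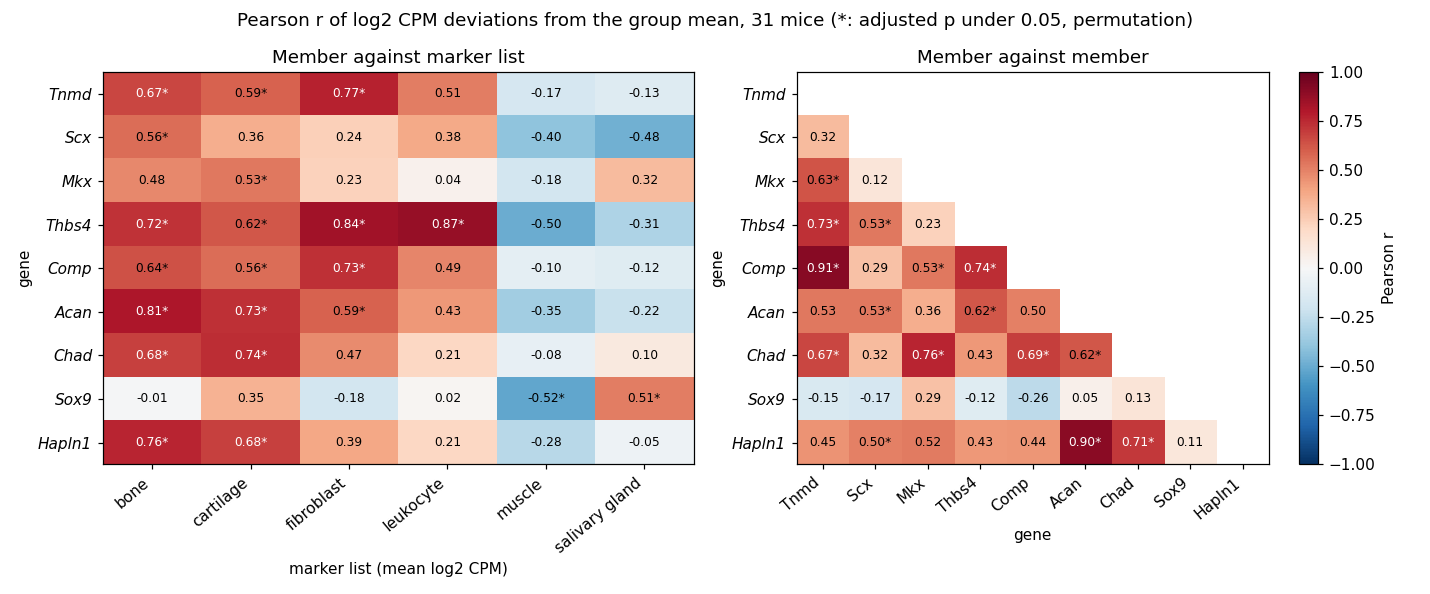
Pearson r over 31 mice of log2 CPM deviations from the group mean, for each gene against 6 marker lists (left) and against the other members (right); an asterisk marks an adjusted permutation p under 0.05. Acan reached 0.81 with bone, Thbs4 0.87 with leukocytes and Tnmd with Comp 0.91, while Sox9 was near 0 with bone and passed only with salivary gland and, inversely, muscle.

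**Figure D4:**
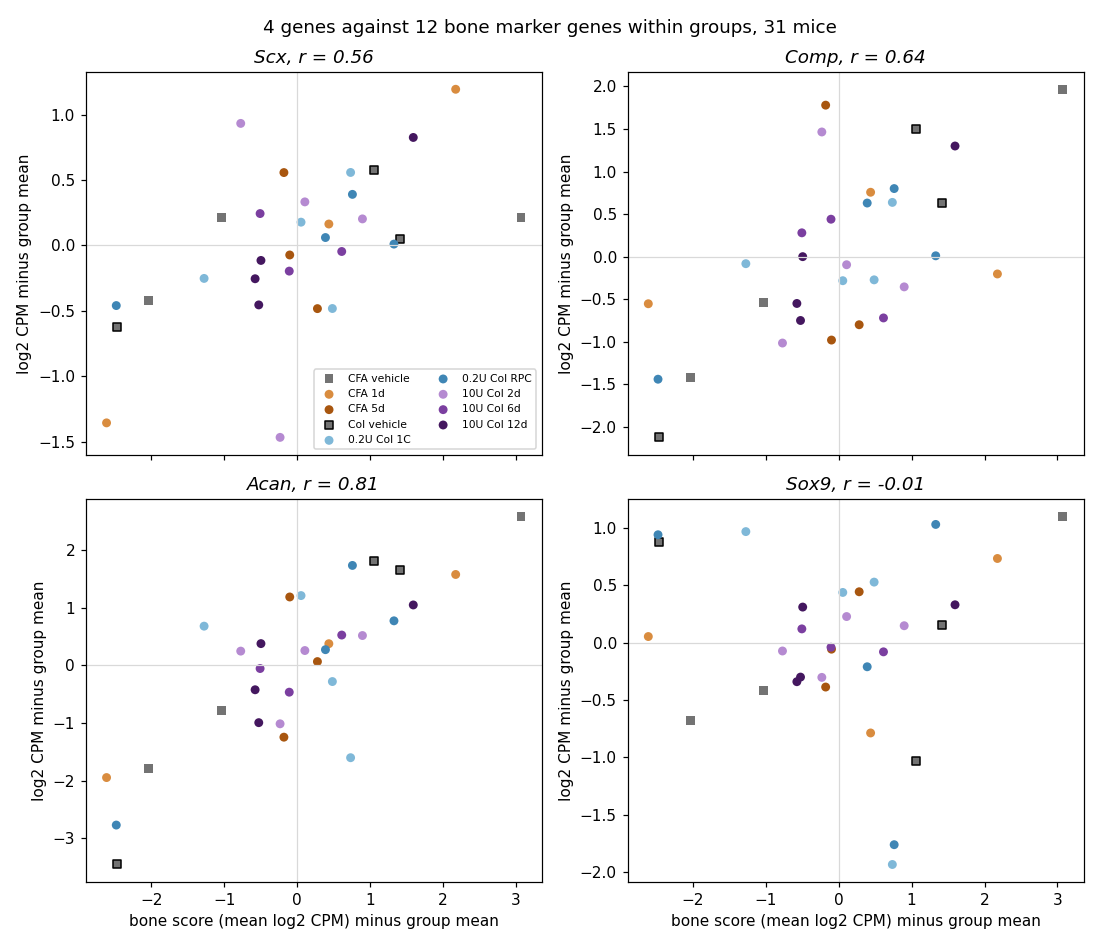
Deviation of log2 CPM from the group mean for Scx, Comp, Acan and Sox9 against the deviation of the mean log2 CPM of 12 bone markers, 1 point per mouse, coloured by group, with squares for vehicle. Points rise from lower left to upper right for Acan (r = 0.81), Comp (r = 0.64) and Scx (r = 0.56) and show no slope for Sox9 (r = -0.01).

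Among themselves the members formed pairs. Of 36 pairs, 32 had a positive r, as did 49.0% of all pairs of 15526 genes, and 15 passed in r after adjustment over the pairs. The lowest r among those 15 was 0.50, which 18 of the 36 pairs and 7.7% of all gene pairs reached. This value was taken from the pairs that passed, so the 2 shares are not an independent comparison. Tnmd and Comp (r = 0.91, rho = 0.92) and Acan and Hapln1 (r = 0.90, rho = 0.84) were the closest, both at a permutation adjusted p of 0.00018 for r, followed by Mkx and Chad (r = 0.76, rho = 0.69; 0.0101) and Thbs4 and Comp (r = 0.74, rho = 0.66; 0.0101). Without the 2 libraries farthest from the median of the first gene of each pair, r was 0.89, 0.87, 0.65 and 0.66. Sox9 passed with no other member, its r running from -0.26 with Comp to 0.29 with Mkx. Scx and Mkx had r = 0.12 and rho = 0.07 (permutation adjusted p = 0.711 for r).

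Over 15526 genes the ones nearest to each member in these deviations were named by the highest r, as a description over 31 mice. Kera, which encodes the proteoglycan keratocan, was nearest to Tnmd (r = 0.94) and second to Comp (r = 0.931), to which Fmod was nearest (r = 0.965). Chad and Hapln1 had Omd, the gene of osteomodulin, a bone matrix proteoglycan, in common (r = 0.817 and 0.868), and Cilp2, a relative of Cilp, was nearest to Chad (r = 0.829). Edil3 was nearest to Acan (r = 0.895), Pla2g4a, the gene of a cytosolic phospholipase, to Thbs4 (r = 0.935), and Ptpn3 to Mkx (r = 0.837). For Sox9 the nearest was Coro2a (r = 0.9). Myoz2, a sarcomere gene of slow muscle, was nearest to Scx (r = 0.829), followed by Ccnf (r = 0.775) and Adprhl1 (r = 0.765).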

How the data were processed

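RNA of 31 masseter muscles was sequenced as polyA-selected, 50-base single-end libraries. The authors aligned the reads with TopHat2 to mouse build mm9 and deposited, for each library, raw read counts per gene symbol in HTSeq format. Tool versions, the annotation used for counting and its strand setting are not given in the sources used here. The 5 closing lines of each table, which name no gene, were left out of library sizes and tests. Their names were written differently in the CFA and the Col experiment. Of all reads listed, 3.94 to 6.73% fell on no gene in the CFA experiment and 7.0 to 12.1% in the Col experiment. Across all libraries 34.6 to 47.9% did not align uniquely and 0.0757 to 0.399% were ambiguous.

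Counts of each comparison were tested with edgeR's quasi-likelihood test (edgeR 4.0.16, limma 3.58.1, R 4.3.3) after TMM normalisation, in genes that reached 10 counts in 3 or more of its libraries, with Benjamini-Hochberg adjustment over all genes tested and a threshold of 0.05. The 10 pairwise comparisons and 2 interactions were repeated with DESeq2 1.42.0, with its size factors in edgeR, without the filter on low counts, with 1 fit of all 31 libraries, with tissue scores as covariates, with the replicate number as a block, with both vehicle groups pooled, with a fold over 2 and a mean RPKM over 1 as added criteria, and without each mouse in turn. CPM and RPKM were computed from the counts with TMM-scaled library sizes, and log2 CPM with a prior count of 2. The tests were checked on simulated counts with known changes.

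The 9 genes and the 13 marker and pathway lists were chosen with earlier results of these data known. From each list, up to 4 tested genes with the largest absolute log2 fold change could be named in a comparison, and for each of the 9 genes the 3 genes nearest to it in log2 CPM deviations. Mice with the same replicate number are different animals. Deviations of same-numbered mice had every correlation over 0.1 only for CFA at 1d against vehicle (mean 0.337) and between the vehicle groups (mean 0.332), and the block changed no call there. Depth, 14843778 to 29076671 counts, gives a counting error of 31.6% at 10 counts.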

Additional observations from a re-analysis of the deposited data

Results flagged for a closer look

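In 36 combinations of the 9 genes with the 4 groups of 4 mice, 3 held a mouse that stood apart by Dixon's criterion, applied to CPM without a log scale. Chance alone meets the criterion in about 1 in 20 where values are normally distributed, so its rate for these CPM is not known. Tnmd had 99.2 CPM in the 10U Col mouse at 12d with replicate number 4, against 20.4 CPM in the next, and Thbs4 had 873 CPM in the same mouse against 190 CPM. In that mouse bone markers summed to 321 CPM, further cartilage genes to 962 CPM, other tendon genes to 12900 CPM and muscle markers to 63400 CPM, the highest 3 and the lowest sums of its group; their part in the 2 values was not tested. Tnmd had 9.49 CPM in the 10U Col mouse at 2d with replicate number 4, against 2.18 CPM in the next.

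The change of Scx from vehicle was greater at 6d after 10U Col than at 5d post-CFA by 3.0 on the log2 scale (edgeR adjusted p = 0.00579), with all 3 mice above vehicle after Col and all 3 below it post-CFA. The share of reads ambiguous between genes, a line of the count tables that no comparison uses, was at least 0.331% in the 11 libraries of 10U Col and at most 0.115% in the vehicle libraries.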

How the results depend on the processing

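Scx at 6d after 10U Col passed under all 8 alternatives that kept every mouse and with any 1 mouse left out (log2 fold change 1.84 to 2.41). Its difference from CFA passed in 6 of 7 alternatives and in 12 of 12 fits without 1 mouse (2.84 to 3.43). Counts of members that passed moved by over 1.5 times as follows, and the cause was not tested. DESeq2 called 1 member at 5d post-CFA, 2 in group 1C, 2 at 2d and 1 at 12d after 10U Col, 2 between 2d and 6d, 7 between 6d and 12d and 2 in the later interaction. The fit shared by 31 libraries called 2 at 2d (31.8% of all genes), 0 between 2d and 6d (11.7%), 0 between 6d and 12d (20.7%) and 2 in the later interaction (10.2%). With the bone score the counts were 2 at 2d (36.0%), 2 between 2d and 6d (19.9%), 2 between 6d and 12d (29.7%) and 2 in the later interaction (16.4%). With both scores they were 2 in 1C (1.59%), 3 at 2d (36.6%), 0 between 2d and 6d (10.7%), 2 between 6d and 12d (30.4%), 1 in the early interaction (0.786%) and 0 in the later one (3.25%). Pooling both vehicle groups gave 1 in 1C (1.95%), 2 at 2d (34.4%) and 1 at 6d (5875 of 14685 genes). The added fold and RPKM criteria left 2 between 6d and 12d (9.72% of 14198 genes with an exon length).

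With the replicate number as a block, 2 members passed at 2d (31.3% of all genes), 3 between 2d and 6d (15.2%) and 3 in the later interaction (9.05%); the numbers do not pair the mice in these comparisons, and no count moved by over 1.5 times elsewhere.

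Without 1 mouse, 0 to 3 members passed at 5d post-CFA (3 without vehicle-treated mouse 3), 0 to 4 at 2d (4 without mouse 4 at 2d), 1 to 5 at 6d, 0 to 1 at 12d (1 without vehicle-treated mouse 2), 0 to 4 between 2d and 6d (4 without mouse 4 at 2d), 0 to 6 between 6d and 12d and 1 to 4 in the later interaction (4 without CFA vehicle mouse 3). No member passed in any such fit for CFA at 1d, either 0.2U group, the vehicle groups or the early interaction. The share of all genes that passed is not given for these fits. At 2d against vehicle that share ran from 1.67% to 36.6% between fits with all mice. Counts without 1 mouse therefore do not set the members apart.

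Of 106 log2 fold changes of the members, 0 changed sign with DESeq2 or the shared fit, 10 with the replicate block, 17 with the bone score and 23 with both scores; 2 of these, Mkx at 6d and Chad from 6d to 12d with both scores, had passed with edgeR, and none passed after the change. At 6d against vehicle, with the bone score and with both, Acan was at 1.76 and 1.51, Hapln1 at 0.85 and 1.31 and Tnmd at 1.47 and 1.45, from -0.85, -1.32 and -0.40. With the bone score, Acan was at 0.83 from 2d to 6d and at -0.60 from 6d to 12d, and Comp at -0.17 from 6d to 12d. With both scores, Mkx was at 0.08 at 6d against vehicle, Acan at 0.57 from 2d to 6d, and from 6d to 12d Comp was at -0.19, Acan at -0.47 and Chad at -0.10. The 21 of 54 relations that passed were 21 with DESeq2 size factors and 21 with a prior count of 0.5. Groups of 3 or 4 mice, with up to 56.5 times between vehicle-treated mice, limit all comparisons, and reads of Acan and Hapln1 were too few at 5d post-CFA for a test.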

Other observations

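Tissues beside the muscle also differed at 6d after 10U Col against vehicle. Of 6 salivary gland markers tested 6 fell, and of 6 skin epithelium markers 5 fell. Of 6 adipose markers 1 rose and 1 fell, and of 7 osteoclast markers 1, the calcitonin receptor gene Calcr, fell. Over all genes at 6d, 14.0% passed as higher and 13.3% as lower, so the adipose and osteoclast counts lay near these shares. From 6d to 12d, 4 of 5 salivary gland markers and 3 of 8 osteoclast markers rose, and 4 leukocyte markers fell. Over all genes 26.4% passed in either direction there.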
